A study of Mus musculus with 6 samples.

Results

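The antibody genes and the genes that mark antibody-secreting plasma cells were examined in sorted splenic regulatory T cells (Tregs) of female mice of the diabetes-prone NOD strain. Members were the probe sets annotated to a single symbol starting with Igh, Igk or Igl, other than Ighmbp2, together with those of Jchain, Mzb1, Sdc1, Tnfrsf17, Derl3, Fkbp11, Txndc5, Sec11c, Eaf2 and Ssr4. The rule found 66 probe sets of 32 genes, among 34945 probe sets of 18193 genes with 1 symbol. Of these, 43 probe sets of 20 genes belonged to the antibody loci and 19 probe sets of 10 genes to the plasma cell genes. A further 4 probe sets, of Iglon5 and Igll1, matched the letters only. Iglon5 encodes a neuronal adhesion protein and Igll1 the surrogate light chain of developing B cells, and both were counted apart.

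The treated group held 3 RAG1o/o mice, which lack RAG1, with the BDC2.5 TCR transgene and Foxp3GFP, and these had received 37.5 µg of the anti-CD3 antibody KT3 intravenously on each of 5 days, beginning when they were 17 days old. The untreated group held 3 RAG1+/o mice with the same transgene and Foxp3GFP, which keep 1 working RAG1 copy and received no antibody. BDC2.5 is a T cell receptor that recognises islet beta cells, and Foxp3GFP marks cells expressing Foxp3 with green fluorescence. All mice were thus T cell receptor transgenic reporters on the NOD background. Cells that were CD4+ and GFP+ and lacked B220, CD8a and CD11b/c were taken by sorting of spleen cells when the mice were 28 or 29 days old, which the labels give as 11 or 12 days after treatment for the treated mice, and each array held 1 mouse. Antibody treatment and RAG1 genotype differed together, so their parts in any difference cannot be told apart. Values are RMA intensities on the log2 scale. An array's median probe set lay between 6.41 and 6.53, which gives a scale for the levels below, and the number of arrays limits the precision.

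An antibody is built from 2 heavy chains of the Igh locus and 2 light chains of the Igk or Igl locus. The variable part of each chain is assembled in developing B cells by RAG1 and RAG2, so mice without RAG1 make no mature B cells and no antibody. Ighm, Ighg3 and Igha encode the constant parts of IgM, IgG3 and IgA heavy chains, and the joining chain encoded by Jchain links IgM and IgA into polymers. Plasma cells, the end stage of B cells, fill an enlarged endoplasmic reticulum with antibody, carry syndecan-1 (Sdc1) and BCMA (Tnfrsf17) on their surface and have little of the B220 that marks earlier B cells. Unrearranged Ighm constant region transcripts are also known from T cells.

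Foxp3 and Cd3e, both transcripts of Tregs, were bright in every sample. Their levels do not show whether cells of other types were absent. Foxp3, which defines Tregs, measured 11.43, 11.46 and 12.44 in treated replicates 1, 2 and 3, against 10.75, 9.94 and 11.07 in untreated replicates 1, 2 and 3. Cd3e, a subunit of the T cell receptor complex, lay between 11.97 and 12.16 in treated samples and between 11.62 and 11.82 in untreated samples. Rag1 measured 6.68, 5.23 and 4.93 in treated samples against 7.61, 7.30 and 5.47 in untreated samples, and its single probe set does not check the genotype, since its place relative to the deleted part is not known here. Untreated replicate 3 stood apart from the other untreated samples in the transcripts of several other cell types, as given with the results. Its log2 difference between the 3′ and 5′ Gapdh control probe sets was 2.02, against 3.23 and 3.87 in the other untreated samples and 3.38, 3.65 and 4.10 in treated samples. For beta-actin it was 0.92, against 1.31 and 1.95 in the other untreated samples. Treated replicates 1, 2 and 3 had 1.42, 1.94 and 3.62 for beta-actin, so treated replicate 3 was the highest on both controls. Larger differences of named members that move by over 1.5 times when untreated replicate 3 is left out are therefore given both ways. Small ones, such as those of Iglon5 and Derl3, are not all given so.

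None of the 66 member probe sets passed the test over all probe sets. With limma and Benjamini-Hochberg adjustment over 45037 probe sets, 0 members were called, and so were 0.0% of all probe sets in either direction. The sizes were nevertheless large on 1 side: 16 members had a log2 difference, treated minus untreated, of −1 or lower and 0 had one of 1 or higher. Over all probe sets, 0.966% lay at −1 or lower and 0.375% at 1 or higher. Among the antibody loci 13 of 43 probe sets lay at −1 or lower (30.2%), and among the plasma cell genes 3 of 19 (15.8%). At an unadjusted p under 0.05, 12 members were on the lower side and 0 on the higher, against 3.0% and 1.53% of all probe sets. Of the 66 members 48 had a difference below 0, against 42.0% of all probe sets. The median difference was −0.29 over the antibody loci, −0.17 over the plasma cell genes and +0.05 over all probe sets. In RNA of a sorted sample, fewer cells of a type and less RNA per cell cannot be told apart.

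Leaving out untreated replicate 3 turned 8 members into calls, all lower in treated samples. They were the 3 probe sets of Igha and 1 probe set each of Jchain, Ighm, Igkv8-30, Igkv6-14 and Iglv1. The same fit called 57 lower probe sets in all, 0.127% of those tested, and 2 higher ones, 0.00444%. In that fit 21 members had a difference of −1 or lower, against 2.21% of all probe sets. Leaving out any other single sample called 0 members. Untreated replicate 3 was singled out from its levels in these same data. Calls made without it, here and below, are thus no independent support. Set against untreated replicate 3 alone, 0 members were called and 3 had a difference of −1 or lower. A lone sample is there assumed to vary like the treated ones.

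**Figure D1:**
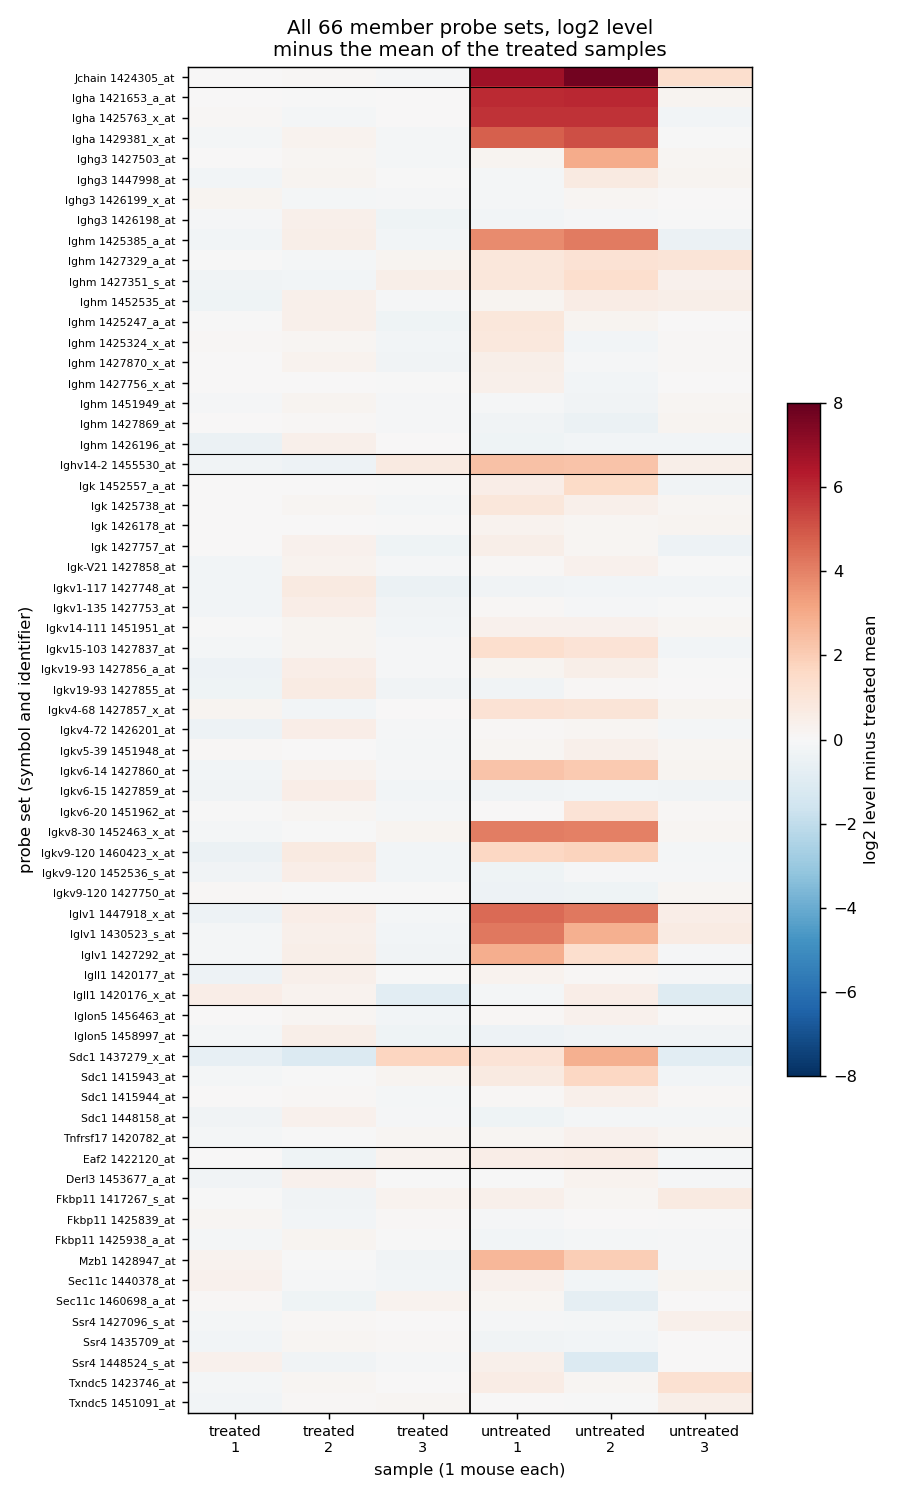
Log2 level of each of the 66 member probe sets (rows, by class) in each sample (columns, 1 mouse each), minus the mean of the 3 treated samples for that probe set. Jchain, the 3 Igha probe sets, Igkv8-30, 1 Ighm probe set and Iglv1 are high in untreated replicates 1 and 2. In untreated replicate 3 they lie much nearer to the treated level, with Jchain still 1.32 above its treated mean.

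Jchain had the largest difference of all members. Its probe set 1424305_at measured 5.73, 5.83 and 5.60 in treated replicates 1, 2 and 3, against 12.50, 13.43 and 7.04 in untreated replicates 1, 2 and 3. All 3 treated values lay below all untreated ones, but untreated replicate 3 was far nearer to the treated samples than to the other untreated ones. The difference of −5.27 (95% interval −8.80 to −1.73) amounts to a 38.5-fold lower level in treated samples and did not pass (limma adjusted p = 0.961). Without untreated replicate 3 it was −7.24 and passed (limma adjusted p = 0.000995), and against that sample alone it was −1.32 (limma adjusted p = 1.0).

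The region around the Jchain start is shown because Jchain differed most and is 1 of 10 member genes with a promoter in the RefSeq table used here, which spans 250 bases before to 50 after each start. It lies at chr5:88527848-88528147 on the minus strand of GRCm38.p6, and capitals mark the single match to ACGTG, on either strand, the core bound by the plasma cell and unfolded protein factor XBP1.
Jchain: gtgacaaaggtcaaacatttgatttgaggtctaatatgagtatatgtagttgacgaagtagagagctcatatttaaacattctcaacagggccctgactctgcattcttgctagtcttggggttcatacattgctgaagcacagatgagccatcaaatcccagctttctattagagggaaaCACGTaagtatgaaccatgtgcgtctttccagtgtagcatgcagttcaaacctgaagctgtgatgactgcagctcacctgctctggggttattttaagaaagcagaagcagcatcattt
ACGTG stood in 19.6% of the 32851 promoter windows of the table and in those of 5 of the 10 member genes. The octamer ATGCAAAT, on either strand, the classic element of antibody gene promoters, was found in 1.74% of all windows and in 0 of the 10 member genes. These are matches of letters, and no binding was measured.

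Igha, the IgA heavy chain constant region, followed Jchain in size on all 3 of its probe sets. The probe set 1421653_a_at measured 6.59, 6.53 and 6.56 in treated samples, against 12.51, 12.57 and 6.77 in untreated replicates 1, 2 and 3. The 3 treated values had an SD of 0.032, and untreated replicate 3 lay just above them. Its difference was −4.06 (interval −7.46 to −0.65, limma adjusted p = 0.961), a 16.7-fold lower level. The other Igha probe sets, 1425763_x_at and 1429381_x_at, differed by −3.78 and −3.31 and had untreated replicate 3 at 5.81 and 7.45, against treated ranges of 5.87 to 6.13 and 7.29 to 7.77. On these probe sets the groups overlapped only through untreated replicate 3. Without that sample the 3 differences were −5.98, −5.78 and −4.97 (limma adjusted p = 0.000389, 0.000389 and 0.00226).

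Ighm showed 3 patterns across its 11 probe sets. The pair of brightest ones were high in every sample of both groups. The probe set 1427329_a_at measured 12.03, 11.96 and 12.29 in treated samples, against 12.97, 13.25 and 13.13 in untreated samples. The groups did not overlap, and here untreated replicate 3 sat among the untreated samples. The difference of −1.02 (interval −1.42 to −0.62, a 2.03-fold lower level) had the smallest unadjusted p of all members, 0.000492, and an adjusted p of 0.698 with limma. It was −1.01 without untreated replicate 3 and −1.04 against that sample alone.

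The second bright Ighm probe set, 1427351_s_at, measured 12.56, 12.62 and 13.27 in treated samples, against 13.73, 14.14 and 13.14 in untreated replicates 1, 2 and 3. Treated replicate 3 and untreated replicate 3 overlapped there, and the difference was −0.85. The probe set 1425385_a_at had the pattern of Jchain and Igha instead. It measured 5.95, 6.63 and 5.98 in treated samples, against 9.99, 10.36 and 5.74 in untreated replicates 1, 2 and 3. Untreated replicate 3 was below every treated sample, and the difference was −2.51, or −3.99 without untreated replicate 3 (limma adjusted p = 0.00792). The other 8 Ighm probe sets differed by −0.43 to +0.26 and lay between 4.16 and 8.91 in treated samples and between 4.24 and 9.12 in untreated samples.

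Ighg3, the IgG3 constant region, was clearly above the treated level in only 1 untreated sample, on 1 of its 4 probe sets. The probe set 1427503_at measured 6.46, 6.58 and 6.24 in treated samples, against 6.62, 9.37 and 6.56 in untreated replicates 1, 2 and 3. Its difference of −1.09 (interval −2.77 to 0.59) therefore rests on untreated replicate 2, without which it was −0.16. The other 3 Ighg3 probe sets differed by −0.27 to +0.10 and were dim, between 2.96 and 5.26 in treated samples and between 3.06 and 5.78 in untreated samples. The heavy chain variable segment Ighv14-2 measured 7.61, 7.44 and 8.57 in treated samples, against 10.21, 10.18 and 8.36 in untreated replicates 1, 2 and 3. Treated replicate 3 was slightly above untreated replicate 3, and the difference of −1.71 did not pass (limma adjusted p = 0.961). Without untreated replicate 3 it was −2.32 (limma adjusted p = 0.188).

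**Figure D2:**
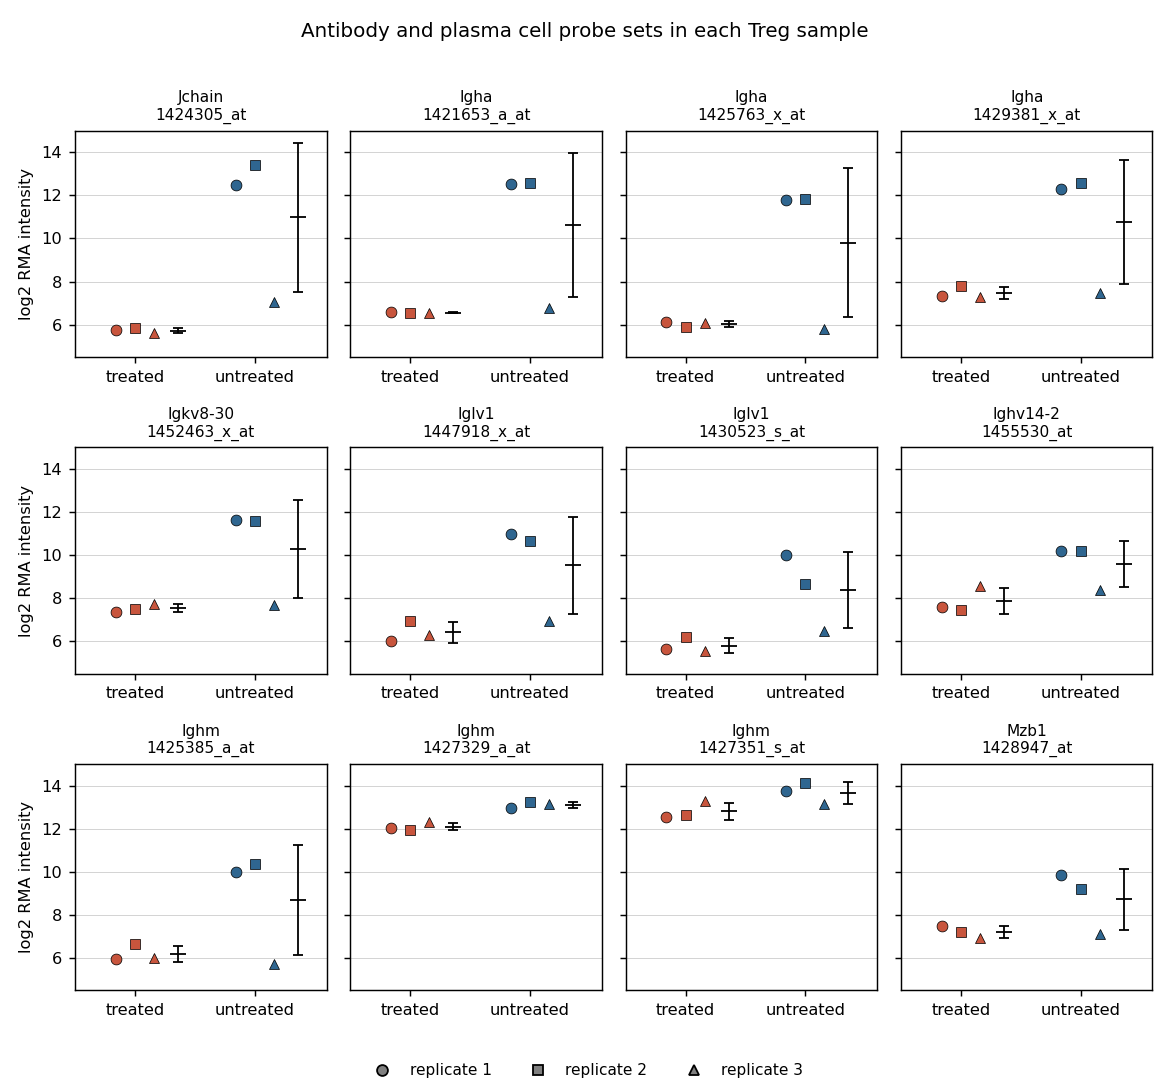
Log2 RMA intensity of 12 member probe sets in the 3 treated (left) and 3 untreated (right) samples of each panel, with the mean and SD beside them (n = 3). In most panels untreated replicates 1 and 2 lie apart from the other 4 samples, for Jchain at 12.50 and 13.43, while Ighm 1427329_a_at separates all 3 untreated samples from the treated ones.

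Lambda light chain transcripts were represented by 3 probe sets of Iglv1, a variable segment, and all had lower treated means. The probe set 1447918_x_at measured 6.03, 6.95 and 6.28 in treated samples, against 10.97, 10.66 and 6.95 in untreated replicates 1, 2 and 3, a difference of −3.10 (limma adjusted p = 0.961). Without untreated replicate 3 it was −4.39 and passed (limma adjusted p = 0.00792). The probe set 1430523_s_at measured 5.65, 6.19 and 5.55 in treated samples, against 9.99, 8.67 and 6.47 in untreated samples. Its groups did not overlap, untreated replicate 3 being 0.68 above the treated mean, and its difference was −2.58, or −3.53 without untreated replicate 3 (limma adjusted p = 0.064). The dim probe set 1427292_at differed by −1.41, with 3.44, 4.04 and 3.28 in treated samples against 6.51, 4.94 and 3.52 in untreated samples. Its difference was −2.14 without untreated replicate 3.

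Kappa light chain transcripts gave differences on few of their 21 probe sets. Of 17 probe sets for variable segments, the largest difference belonged to Igkv8-30, which was named after its values were seen. It measured 7.36, 7.50 and 7.74 in treated samples, against 11.61, 11.58 and 7.66 in untreated replicates 1, 2 and 3. Untreated replicate 3 lay inside the treated range. The difference was −2.75 (interval −5.10 to −0.41), and −4.07 without untreated replicate 3 (limma adjusted p = 0.00268).

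Igkv6-14 measured 4.28, 4.78 and 4.40 in treated samples, against 6.75, 6.59 and 4.69 in untreated samples, and its difference of −1.52 became −2.18 without untreated replicate 3 (limma adjusted p = 0.0391). The dim Igkv4-68 differed by −0.78, at 3.82, 3.40 and 3.66 in treated samples against 4.75, 4.63 and 3.84 in untreated samples. Its groups did not overlap, but only by the narrow gap from 3.82 to 3.84. Igkv9-120 and Igkv15-103, also named after their values were seen, differed by −1.09 and −0.74 on the probe sets 1460423_x_at and 1427837_at, and by −1.72 and −1.21 without untreated replicate 3. The other 12 variable segment probe sets differed by −0.42 to +0.27, 6 of them below 0. The 4 probe sets under the locus symbol Igk differed by −0.58 to −0.09, and the lowest of these, 1452557_a_at, by −1.01 without untreated replicate 3.

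Most antibody probe sets with small differences were dim. In treated replicates 1, 2 and 3 the medians of the 13 probe sets at −1 or lower were 6.13, 6.58 and 6.24, and in untreated replicates 1, 2 and 3 they were 10.21, 10.36 and 6.56. The medians of the other 30 lay between 4.75 and 5.08 in treated samples and between 4.80 and 4.82 in untreated samples, under the array medians. Of the 43 antibody probe sets, 24 were below the array median in all 6 samples, where a difference may not be detectable. Sharing of sequence also limits single segments: of these 43, 10 carry the suffix that Affymetrix gives to probe sets with probes matching other transcripts (_x_at), 5 of the 13 among them. Variable segments of a family resemble each other in sequence, so signal assigned to 1 variable segment is uncertain.

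The groups did not overlap in 7 of the 43 antibody probe sets and in 1 of the 19 plasma cell probe sets, Jchain, always with treated values below. Of these 7, 4 were kappa probe sets with differences of only −0.78 to −0.21, at levels from 3.34 to 6.80. Over all probe sets 5.02% had treated values below all untreated ones and 5.14% above them. Of the 15 members at −1 or lower apart from Ighm 1427329_a_at, 14 had both untreated replicates 1 and 2 above the other 4 samples. For Ighg3 1427503_at the margin was only 0.03. Picking members by a low difference favours this order, and its share over all probe sets was not counted. Within these 15, untreated replicate 3 differed from the treated mean by −0.83 to 1.32. Over all 66 members it lay within the treated range in 43, against 61.5% of all probe sets.

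**Figure D3:**
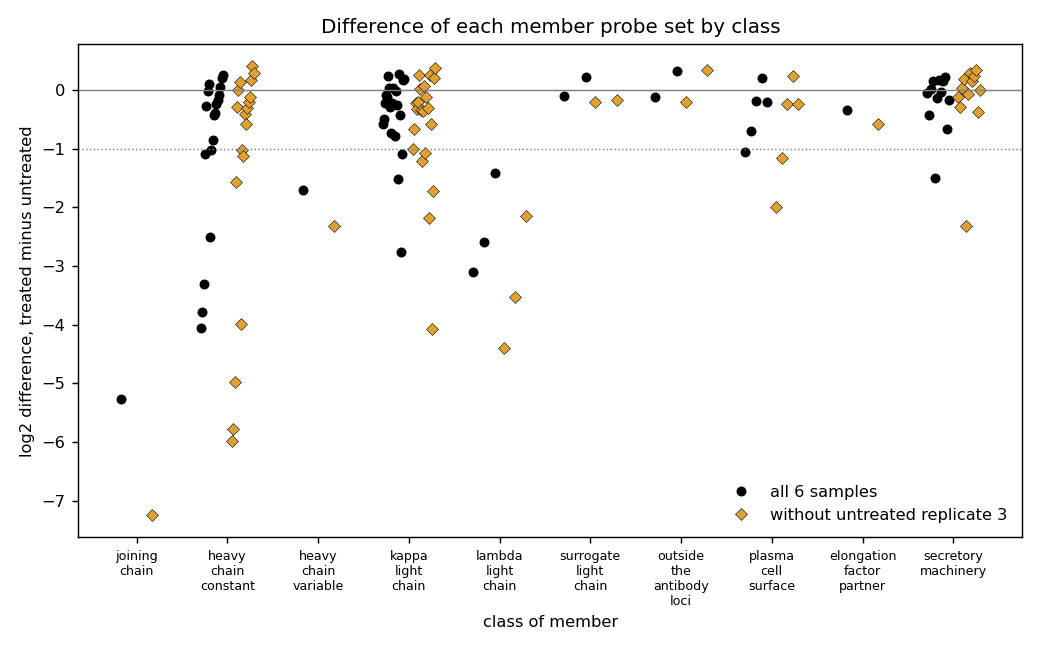
Log2 difference, treated minus untreated, of each member probe set by class, with all 6 samples (black circles) and without untreated replicate 3 (yellow diamonds); the dotted line marks −1. Jchain, 4 heavy chain constant probe sets, Igkv8-30 and 2 of 3 lambda probe sets lie below −2 with all samples, and Mzb1 is the only secretory machinery member below −1.

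Among surface markers of plasma cells the probe sets of Sdc1 did not move together. The probe set 1415943_at measured 5.60, 5.75 and 6.02 in treated samples, against 6.48, 7.43 and 5.55 in untreated replicates 1, 2 and 3, a difference of −0.69 (interval −1.73 to 0.34) that was −1.16 without untreated replicate 3. The probe set 1437279_x_at differed by −1.05 with values from 3.06 to 5.84 in treated samples and from 3.31 to 7.01 in untreated samples, and its groups overlapped widely. Its difference was −1.99 when untreated replicate 3 was left out. The other Sdc1 probe sets, 1415944_at and 1448158_at, differed by −0.18 and +0.20. Tnfrsf17, the receptor for the survival factors APRIL and BAFF, was dim, at 4.71, 4.79 and 5.02 in treated samples against 5.00, 5.16 and 4.98 in untreated samples. Its difference of −0.21 had an interval of −0.59 to 0.17.

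Of the endoplasmic reticulum genes among the members, Mzb1 had by far the largest difference. Mzb1 encodes a chaperone partner that aids IgM assembly in B and plasma cells. It measured 7.50, 7.21 and 6.93 in treated samples, against 9.86, 9.18 and 7.11 in untreated replicates 1, 2 and 3. Untreated replicate 3 lay within the treated range, and the difference of −1.51 (interval −3.03 to 0.02) did not pass. Without that sample it was −2.31 (limma adjusted p = 0.0814). The other 11 secretory machinery probe sets differed by −0.66 to +0.22, 6 of them below 0.

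Txndc5, a protein disulphide isomerase, had the lowest of these differences, −0.66 on the probe set 1423746_at. It measured 7.63, 7.99 and 7.82 in treated samples, against 8.41, 7.95 and 9.05 in untreated replicates 1, 2 and 3, so untreated replicate 3 was the highest sample, and the difference without it was −0.37. Its brighter probe set 1451091_at measured 10.65, 10.99 and 11.06 in treated samples against 10.91, 10.90 and 11.39 in untreated samples. Sec11c, the catalytic subunit of signal peptidase, was bright in both groups, with 11.92, 11.49 and 12.14 in treated samples against 11.99, 11.13 and 11.90 in untreated samples on 1460698_a_at (interval of the difference −0.50 to 0.85). Ssr4, a subunit of the translocon-associated complex, measured 10.80, 10.20 and 10.39 in treated samples against 10.86, 9.36 and 10.49 in untreated samples on 1448524_s_at. The 3 probe sets of Fkbp11, a prolyl isomerase of the secretory pathway, differed by −0.42 to +0.15. Eaf2, which encodes a partner of the transcription elongation factor ELL, measured 5.54, 5.18 and 5.81 in treated samples against 6.05, 6.12 and 5.36 in untreated samples, a difference of −0.33, or −0.58 without untreated replicate 3.

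Derl3, which helps to remove misfolded proteins from the endoplasmic reticulum, had nearly equal means in both groups. It measured 6.72, 7.33 and 6.95 in treated samples against 6.98, 7.26 and 6.92 in untreated samples, and the interval of its difference ran from −0.54 to 0.44. Its start region is shown as the contrast to Jchain, since it alone among the 10 member genes with a window held the endoplasmic reticulum stress element, CCAAT and CCACG spaced by 9 bases, on either strand. The element was found in 0.119% of all windows. It lies at chr10:75893148-75893447 on the plus strand of GRCm38.p6, and capitals mark the element's fixed bases, here on the opposite strand.
Derl3: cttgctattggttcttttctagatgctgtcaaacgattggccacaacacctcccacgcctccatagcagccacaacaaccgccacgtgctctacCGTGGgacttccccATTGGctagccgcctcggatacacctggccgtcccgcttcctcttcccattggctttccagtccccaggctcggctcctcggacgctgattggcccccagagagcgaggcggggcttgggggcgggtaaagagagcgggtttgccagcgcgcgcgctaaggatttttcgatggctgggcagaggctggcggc
The element begins at position −156 from the gene start and does not overlap the 2 overlapping ACGTG matches of the same window. The match is a description of the sequence, and Derl3 transcripts did not pass the test.

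The 4 probe sets that share only the letters had differences near 0 for Iglon5, −0.11 and +0.33, and for Igll1, −0.10 and +0.22. The brighter Igll1 probe set, 1420176_x_at, measured 8.25, 8.01 and 6.88 in treated samples against 7.56, 8.21 and 6.71 in untreated samples. Its difference was −0.18 without untreated replicate 3.

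Markers of B cells other than antibody genes were low in the same samples as the antibody genes. All 22 measured B cell genes had a difference below 0, 18 of them at −1 or lower, against 0.973% of all 18193 genes. Their median was −1.93, against +0.05 over all genes, and 0 passed. Their mean level was 6.84, 6.65 and 6.78 in treated samples, against 9.54, 9.52 and 7.14 in untreated replicates 1, 2 and 3. Ms4a1, encoding CD20, measured 6.50, 6.66 and 6.30 in treated samples against 12.95, 12.93 and 8.97 in untreated samples. Cd79a, a signalling chain of the B cell receptor, measured 6.03, 6.05 and 5.91 in treated samples against 8.47, 6.94 and 5.92 in untreated samples, a difference of −1.11, or −1.70 without untreated replicate 3. Its partner Cd79b differed by −2.84. Fcmr, the IgM receptor gene, and H2-Ob, of the class II loading machinery, differed by −2.81 and −2.23. Without untreated replicate 3, 14 of the 22 passed, all lower, against 0.17% of all genes. The part of B cells in the antibody differences was not tested.

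**Figure D4:**
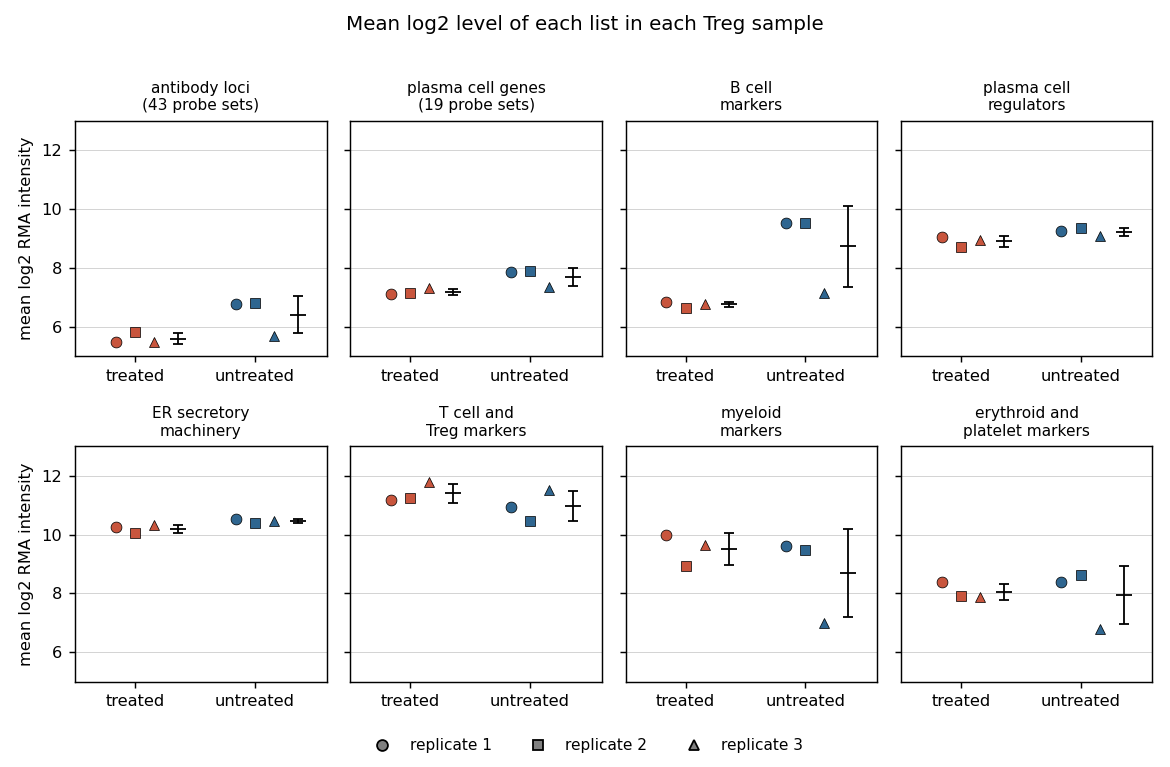
Mean log2 RMA intensity of the antibody probe sets, the plasma cell probe sets and 6 marker lists in the 3 treated (left) and 3 untreated (right) samples, with the mean and SD beside them (n = 3). Untreated replicate 3 lies near the treated samples for B cell markers (7.14) and below every other sample for myeloid markers (6.99).

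Regulators of the plasma cell state were bright in both groups, and several are also known from Tregs. Prdm1, encoding the plasma cell regulator Blimp-1 that effector Tregs also use, measured 10.85, 10.83 and 10.50 in treated samples against 11.01, 10.77 and 11.58 in untreated samples, a difference of −0.40, or −0.17 without untreated replicate 3. Irf4, needed by plasma cells and effector Tregs alike, measured 9.61, 10.21 and 10.29 in treated samples against 10.35, 10.44 and 10.59 in untreated samples. Xbp1, the driver of the secretory programme, measured 11.40, 11.01 and 11.45 in treated samples against 11.74, 11.85 and 11.57 in untreated samples. For Irf4 and Xbp1 the groups did not overlap, with differences of −0.42 and −0.44 (limma adjusted p = 0.961 for each). Tnfrsf13b, encoding the BAFF and APRIL receptor TACI, differed by −1.25 and was highest in untreated replicate 3, at 11.38. Zbtb20, a factor of long-lived plasma cells, and the integrin gene Itga4 differed by −0.94 and −0.51. Of these 15 genes, 11 had a difference below 0, against 41.5% of all genes, with a median of −0.42, and 0 passed. Treated values lay below all untreated ones in 5 of the 15, against 5.24% of all genes. Irf4, Xbp1, Tnfrsf13b and Zbtb20 were among these.

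The wider secretory machinery, a list of 61 genes, had many small differences below 0. Of its members 45 were below 0, against 41.5% of all genes, and in 10 the treated values lay below all untreated ones, against 5.24%. An unadjusted p under 0.05 on the lower side was found for 9, against 3.17% of all genes. None passed, none lay at −1 or lower, and the median was −0.29. Spcs2, a subunit of the signal peptidase that holds Sec11c, measured 11.32, 11.20 and 11.64 in treated samples against 11.93, 12.62 and 12.24 in untreated samples. The coat protein gene Sec23b differed by −0.92, the signal peptidase gene Spcs3 by −0.55 and the cargo receptor gene Lman1 by −0.57. In these 4 genes, the ones with the smallest p, untreated replicate 3 lay above every treated sample, which picking by a small p favours. Untreated replicate 3 did so in 21 of the 61 genes of the list, in 11 of the 22 B cell genes and in 3291 of all 18193 genes. Among antibody probe sets it did so in 11 of 43, against 8739 of all 45037 probe sets. The secretory list's median against untreated replicate 3 alone was −0.26, and that of the B cell list was −0.19.

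Markers of other cells of the spleen behaved otherwise. Of 26 myeloid genes 22 had a difference above 0, against 58.5% of all genes, and 10 one of 1 or higher, against 0.533%. Their median was +0.75, and their mean level was 9.98, 8.92 and 9.66 in treated samples against 9.62, 9.49 and 6.99 in untreated replicates 1, 2 and 3. The 4 with the smallest p were the complement genes C1qa (+0.53) and C1qb (+1.24), the chemokine receptor gene Ccr9 (−0.82) and the endotoxin co-receptor gene Cd14 (+1.04). Without untreated replicate 3 the myeloid median was +0.07, C1qb differed by +0.75 and Cd14 by +0.55. Erythroid and platelet markers averaged 8.37, 7.91 and 7.87 in treated samples against 8.40, 8.62 and 6.80 in untreated samples, with Gata1 at −0.45, Pf4 at +0.36, Hbb-b2 at +0.62 and Klf1 at +0.32. When untreated replicate 3 was left out, Gata1 was −1.08, Pf4 −0.08, Hbb-b2 −0.45 and Klf1 −0.21. The 14 T cell and Treg markers had a median of +0.41, with Cd247 at +1.05, Zap70 at +0.83 and Cd4 at +0.37. Their median was +0.73 without untreated replicate 3 and −0.25 against that sample alone. No gene of these 3 lists passed. Untreated replicate 3 therefore had low levels of B cell, myeloid and erythroid markers together, and T cell marker levels of 11.51 against 10.96 and 10.46 in the other untreated samples. The part of these other cells in the antibody differences was not tested.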

How the data were processed

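RNA of sorted splenic Tregs of 6 mice was hybridised to Affymetrix M430v2 arrays after 2 rounds of amplification, per the labels' protocols, which can strengthen 3′ bias. The authors deposited each intensity as RMA output, made in GenePattern per the series' design text, and unlogged by its range (5.47 to 29584.9). RMA makes array distributions alike, so a change common to most transcripts could not be seen. No detection calls were used, and dim values are bounded only by the array's background.

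Log2 was taken and no further normalization applied. Of 45101 probe sets, 64 controls were left out. Symbols came from the platform annotation, updated through gene identifiers for 34741 of 34945 probe sets with 1 symbol, and no gene was named from the 932 probe sets with several. The comparison used lmFit and eBayes of limma 3.58.1 under R 4.3.3 over 45037 probe sets with Benjamini-Hochberg adjustment and a threshold of 0.05. Intervals are 95% intervals. Each array held 1 mouse, so p-values measure the spread between mice. For lists, a gene stood in by the probe set brightest on average, with adjusted p-values over all probe sets.

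Members and lists were chosen with earlier results of these data known. By rule, constant region and plasma cell genes were named, variable segments among the 8 members with the smallest p, up to 4 genes per list with the smallest p, and Rag1, Foxp3, Cd3e, Cd4, Ms4a1, Cd79a, Cd79b, Prdm1, Irf4 and Xbp1. The test was run on simulated data with independent normal values and a shift common to all treated samples. No untreated sample was set at the treated level there, so that pattern was not checked. Promoter windows are from RefSeq (GRCm38.p6), which held none for the antibody loci here. Python 3.11.15 and matplotlib 3.10.9 drew the figures.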

Additional observations from a re-analysis of the deposited data

How the results depend on the processing

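None of the alternatives that kept all 6 samples and used a test called a member. These were a threshold of 0.1, age as a covariate, array weights, a trended and robust variance, log2(value + 16), median centring, quantile normalization, a filter on dim probe sets and 1 probe set per gene. Leaving out each sample in turn gave 0 to 8 called members, 0 to 57 lower and 0 to 2 higher probe sets in all, 0 to 14 called B cell genes, 12 to 21 members at −1 or lower and 45 to 53 below 0. The highest counts of calls came without untreated replicate 3. Array weights called 4 lower and 1 higher probe sets, none of them members. The dim filter kept probe sets that reached 100 on the linear scale in at least 3 arrays, 27 members among them. It left 8 members at −1 or lower and 21 below 0, and 1 probe set per gene left 8 and 23. Such a filter also drops members that are bright in untreated replicates 1 and 2 only. Igha 1425763_x_at, at 11.78 and 11.83 there, was dropped so. A fold of at least 2 between linear group means, with no test, was met by 16 lower members, 496 lower and 194 higher probe sets in all, 18 B cell genes, and 2 genes each of the plasma cell regulators, the T cell and the myeloid lists.

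Against untreated replicate 3 alone, 2 higher probe sets and 1 myeloid gene were called, 3 members lay at −1 or lower and 1 (Igll1) at 1 or higher. These differences then turned: Igha +0.22 (1425763_x_at) and +0.017 (1429381_x_at), Ighm +0.45 (1425385_a_at), Iglv1 +0.067 (1427292_at), Mzb1 +0.10, Sdc1 +0.24 (1415943_at) and +0.83 (1437279_x_at), Igkv9-120 +0.17, Igkv15-103 +0.21, Igk +0.26, Eaf2 +0.15, Derl3 +0.085, Sec11c −0.046, Ssr4 −0.031, Cd79a +0.079, Gata1 +0.79 and Rag1 +0.145. Over the samples left out in turn, Derl3 ran from −0.22 to +0.089, Igll1 from −0.18 to +0.63, Sec11c from −0.094 to +0.36, Ssr4 from −0.22 to +0.54, Pf4 from −0.085 to +0.71, Hbb-b2 from −0.45 to +1.27 and Klf1 from −0.21 to +0.87. With age as a covariate Igll1 was −0.0085. Over 62 named probe sets and 18 alternatives, 1047 values were counted as unchanged, 27 turned and 12 passed. Unchanged values kept their direction and, where a test was used, their side of the threshold. For the ratio of linear means they stayed within the larger group SD of the main difference. The cause was not tested.

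Same-numbered samples deviated together with r of 0.45, 0.08 and 0.09, which is not over 0.1 for every pair, so the block was kept as an alternative only. The array file numbers in the labels nevertheless lie next to each other for the same replicate number, with both replicates 3 later than the rest, so a shared order of processing is possible and the labels do not say what the number marks. Treated replicate 2 correlated best with untreated replicate 3 (0.17). With the replicate block 0 members were called, 16 lay at −1 or lower and 48 below 0. The number of arrays and dim signal limit the results: 28 of 66 members were below the array median in all 6 samples.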

Other observations

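A further 13 probe sets were annotated to several symbols of the antibody loci and were no members, and no gene is named from them. Of these 12 had a difference below 0, against 42.0% of all probe sets, and 5 one of −1 or lower, against 0.966%. Their median was −0.73 and their range −2.83 to +0.07. The one with the largest difference measured 4.44, 5.01 and 4.56 in treated samples, against 8.61, 7.97 and 5.93 in untreated replicates 1, 2 and 3, and its groups did not overlap. None passed with limma over all 6 samples, 5 were lower at an unadjusted p under 0.05, and 3 passed without untreated replicate 3.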
